A study of Mus musculus with 24 samples.

Results

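Described here are 40 mouse genes of autophagy and the lysosome, out of 55471 genes counted in each library. They were chosen by name, with earlier results of these data known. By role they were 6 genes of the initiation complex and of nucleation, 12 genes of conjugation, lipid transfer and membrane supply, 5 genes of the ATG8 family, 2 cargo receptors, 3 transcription factors of the MiT/TFE family, 5 genes of the lysosomal membrane and of lipid transport, and 7 lysosomal hydrolases. Of these, 39 had enough counts for the test, and Ctss (cathepsin S, a lysosomal protease of antigen-presenting cells) did not, with between 0 and 3 counts per library.

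RNA-seq of mouse embryonic fibroblasts (MEFs) was analysed in 24 libraries, which fell into 8 groups of 3. The genotypes were WT, a knockout of LKB1, and clones A1 and A2 of an LKB1/CRTC2 knockout, so that the knockout and both clones shared the loss of LKB1, the kinase encoded by Stk11. Each genotype was either left untreated (ctrl) or stimulated for 6 hours with IL-1β, an inflammatory cytokine. Below they are called wild-type, Lkb1-/-, clone A1 and clone A2. LKB1 activates AMPK and the AMPK-related kinases, among them the salt-inducible kinases that keep CRTC2, a coactivator of the transcription factor CREB, out of the nucleus. Per the study's methods, the clones were grown from single cells after Cas9 cutting with guides to the first exon of Crtc2, so each stands for 1 clone, and the effect of the clone cannot be told apart from that of CRTC2 loss. In the same way, wild-type and Lkb1-/- MEFs were separate lines, and the line cannot be told apart from the genotype. The labels do not say that the 3 libraries of a group came from separate cultures, so p-values measure only the spread between these libraries.

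Autophagy encloses cytoplasm in a double membrane, the autophagosome, which fuses with the lysosome, where hydrolases digest its content. The ULK1 kinase complex and the Beclin 1 lipid kinase complex start the membrane, the ATG conjugation proteins attach ATG8 proteins such as LC3 to it, and receptors such as p62 tether cargo to ATG8 proteins. Genes of this pathway and of the lysosome are targets of TFEB, TFE3 and MITF, which bind E-box sequences in promoters and are mainly controlled through their location in the cell, so RNA levels alone do not show their activity or the flux through the pathway. In fibroblasts the pathway is active at rest and rises when nutrients are scarce, with AMPK as an activator and mTORC1 as an inhibitor of ULK1.

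Each library held between 38842901 and 48594394 counts on genes (median 42431965). Without IL-1β, Stk11 stood at 86.0 ± 1.68 (SD, n = 3) in wild-type and 17.3 ± 1.24 in Lkb1-/- cells, in CPM, the counts of a gene scaled to a common library total with the trimmed mean of M-values. Crtc2 was at 81.1 CPM ± 1.80 in untreated Lkb1-/- MEFs, at 42.9 CPM ± 2.11 in clone A1 and at 49.8 CPM ± 0.864 in clone A2, so its RNA was lower but still present in the clones. The 9 fibroblast markers summed to between 5352 and 9916 CPM per library, although Thy1 was at 0 in the 3 untreated wild-type libraries and at most 0.0464 CPM in the other untreated ones. The lines differed in single fibroblast markers, with log2 fold changes in untreated Lkb1-/- against wild-type MEFs of 6.22 for Pdgfra and -3.63 for Col1a2. The 8 macrophage markers summed to at most 9.11 CPM, with Adgre1 at 0 in all untreated libraries, the 5 epithelial markers to at most 2.93 CPM and the 4 endothelial markers to at most 3.85 CPM. At these low levels the macrophage marker Csf1r, the endothelial marker Kdr and the epithelial marker Epcam were 33.5-fold, 6.64-fold and 6.81-fold higher in untreated Lkb1-/- than in wild-type MEFs, and the epithelial marker Krt19 was 3.76-fold lower. The part of these marker differences in the results was not tested. In bulk RNA, fewer cells of a kind and less RNA per cell cannot be told apart.

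Libraries that shared the replicate number 1 stood apart in these genes. Of the 39 members, 16 had their lowest level in the library numbered 1 in all 8 groups, against 11.2% of the 17522 genes tested. Atg16l1 went the other way and was highest in the library numbered 1 in all 8 groups. For the libraries numbered 2 this held for 1 member at the low end, Ctsl, and for the libraries numbered 3 for none at the low end and 7 at the high end. Of all genes, 4.78% were highest in the library numbered 1 and 5.08% in that numbered 3 in all 8 groups. Gabarap was at 154, 183 and 199 CPM in the untreated wild-type libraries numbered 1, 2 and 3, and at 191, 268 and 331 CPM in those of clone A2. Read pairs that were assigned to no gene took between 29.9% and 34.4% in the libraries numbered 1, between 28.2% and 30.0% in those numbered 2 and between 26.7% and 29.0% in those numbered 3, and their part in the levels was not tested. Counts of members called are therefore also given from a fit without the libraries numbered 1, an alternative chosen after seeing the data.

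**Figure D1:**
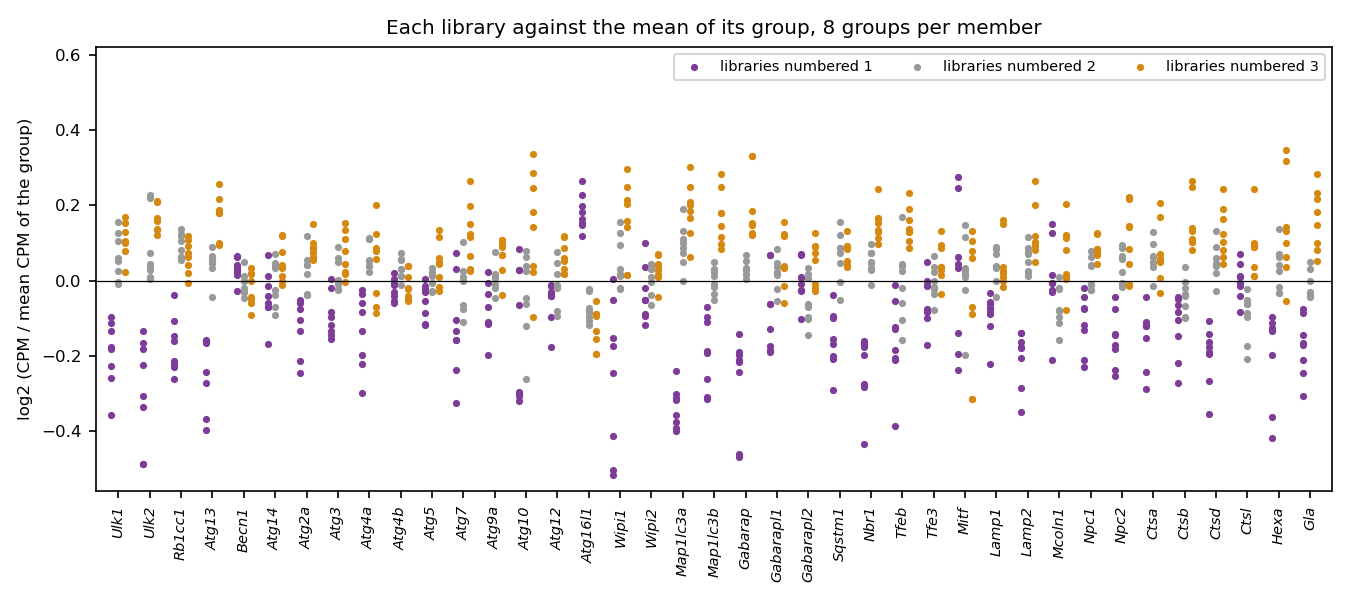
Level of each member in each library as log2 of its CPM over the mean CPM of its group (y axis), for the 39 members tested (x axis) and 8 groups, coloured by the number of the library. For 16 members all 8 purple points (libraries numbered 1) are the lowest of their groups.

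Per kilobase of exon, the members spanned a wide range in untreated wild-type MEFs. The highest mean was that of Lamp1 (a main glycoprotein of the lysosomal membrane) at 302 CPM per kb, followed by Sqstm1 (p62, an autophagy receptor) at 153 and Gabarap (an ATG8 protein) at 97.0 CPM per kb. The proteases Ctsd and Ctsb had nearly equal levels of 60.6 and 60.1 CPM per kb. Among the genes of initiation and of conjugation, lipid transfer and membrane supply, Atg3 (the E2-like enzyme of ATG8 lipidation) stood highest at 21.9 CPM per kb. At the low end were Atg10 (the E2-like enzyme for ATG12) at 1.92, Mitf at 1.58 and Tfeb at 1.35 CPM per kb. Ctss was at 0 counts in 18 of the 24 libraries. In untreated Lkb1-/- MEFs the mean of Mitf was 17.7 CPM per kb and that of Tfeb 2.25 CPM per kb, while Ctsb stood at 137 and Sqstm1 at 82.1 CPM per kb.

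The first comparison asked how loss of LKB1 bears on these genes without stimulation. In untreated Lkb1-/- MEFs, all 3 MiT/TFE factors were higher than in wild-type MEFs, with Mitf 11.2-fold higher. The kinase gene Ulk1 and the hydrolase genes Ctsb and Gla were about doubled, and the cargo receptor gene Sqstm1 and the hydrolase genes Hexa and Ctsd were lower. Of the 39 members, 16 were called higher and 9 lower at an adjusted p under 0.05 (edgeR's quasi-likelihood test, Benjamini-Hochberg over all genes), which is 64.1% of the members, against 55.9% of all 17522 genes (30.1% higher and 25.8% lower). The members' median log2 fold change was 0.17, against 0.04 over all genes. Of the 39 members, 4 (Mitf, Ctsb, Ulk1 and Gla) were called with a log2 fold change over 1 in size, as were 23.5% of all genes. Without the libraries numbered 1, 20 members were called higher and 10 lower, with 58.7% of all genes called. With all libraries, the changes were thus many, mostly small, and nearly as frequent over all genes. Without the libraries numbered 1, the members' share stood further above that of all genes.

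**Figure D2:**
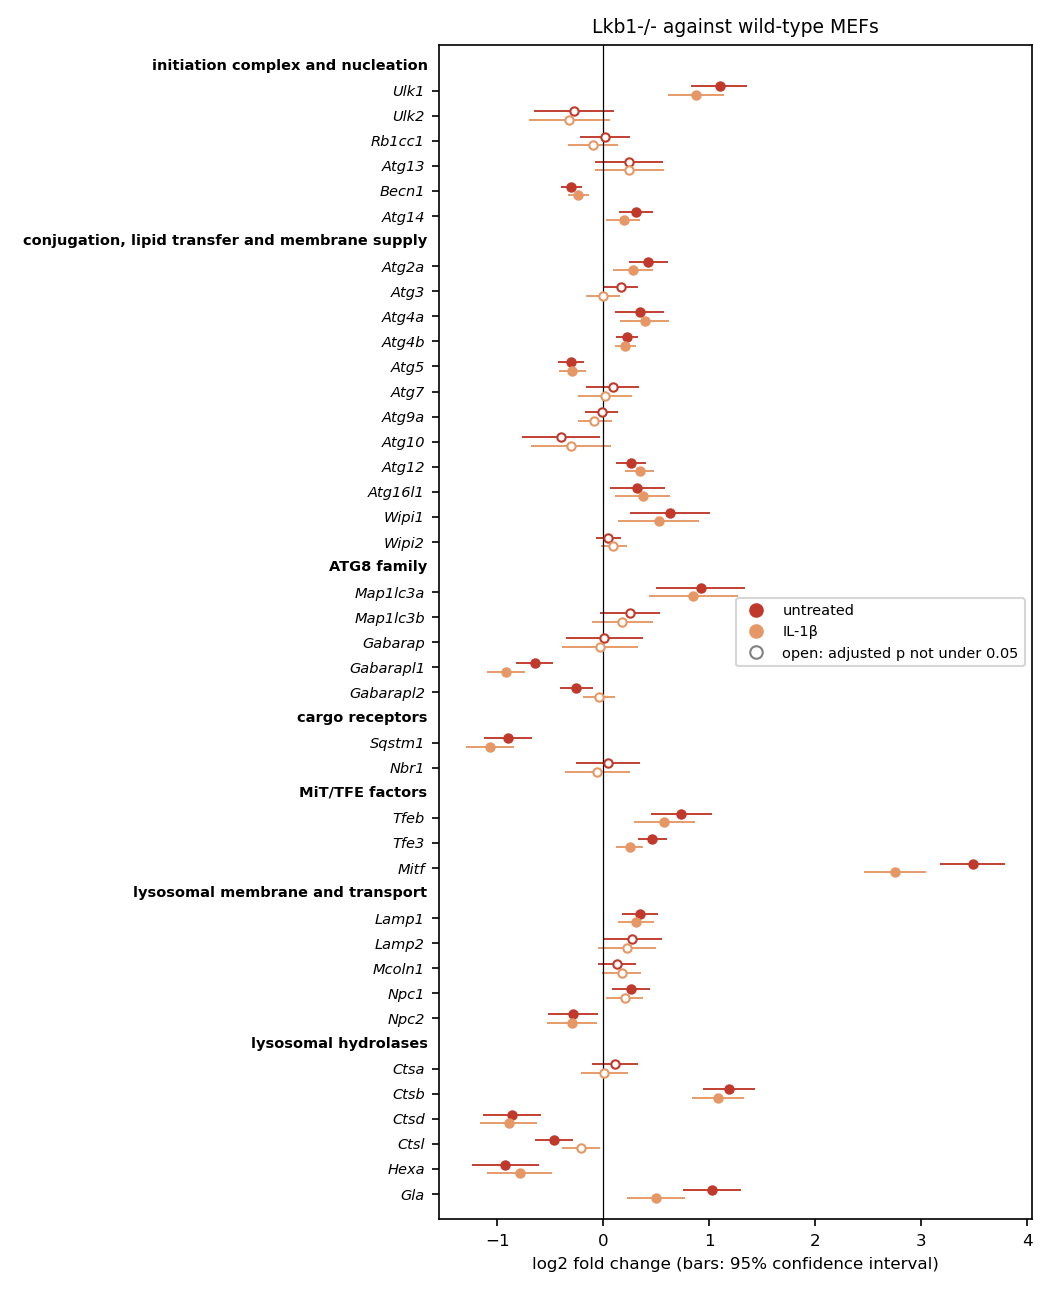
Log2 fold change of the 39 members tested in Lkb1-/- against wild-type MEFs (x axis), untreated (red) and after IL-1β (orange), grouped by role, with bars of the 95% confidence interval and filled points where the adjusted p is under 0.05. Mitf stands apart from the others at 3.48 and 2.75, and members of the same role lie on either side of 0.

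The 3 MiT/TFE factors moved most as a group. Mitf (the melanocyte factor of the family) was at 10, 8.52 and 10.7 CPM in the 3 untreated wild-type libraries. In the untreated Lkb1-/- libraries Mitf was at 95.2, 118 and 115 CPM. No library of one group came near those of the other, and the log2 fold change was 3.48 (SE 0.16, edgeR adjusted p = 5.7e-14). Tfeb (the main regulator of lysosome genes) was at 7.03, 7.80 and 8.14 CPM in wild-type and at 11.1, 13.2 and 14.0 CPM in Lkb1-/- libraries, with a log2 fold change of 0.74 (SE 0.15, edgeR adjusted p = 0.00021). Tfe3, the most abundant of the 3 in wild-type MEFs per kilobase, was at 91.8, 87.8 and 86.7 CPM against 116, 126 and 126 CPM, and the log2 fold change was 0.47 (SE 0.068, edgeR adjusted p = 5.3e-06). For both genes the groups did not overlap.

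**Figure D3:**
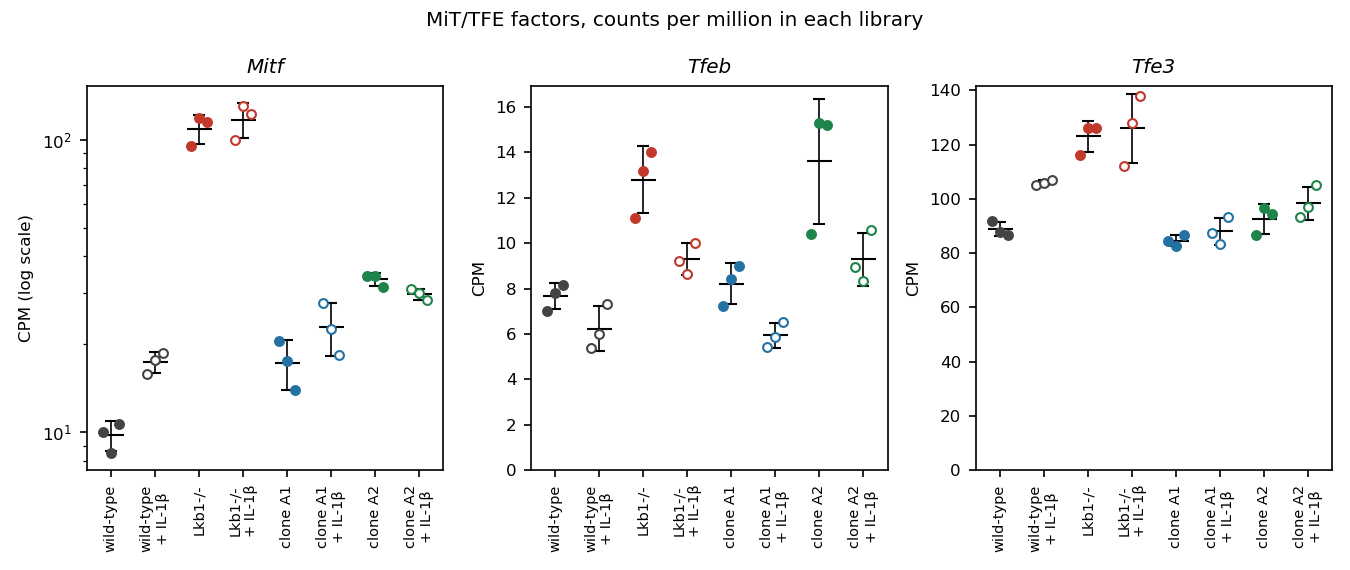
CPM of the MiT/TFE factors in each library (points) of the 8 groups, filled when untreated and open after IL-1β, with the mean and SD of 3 libraries. Mitf, on a log axis, lies between 95.2 and 129.7 CPM in the 6 Lkb1-/- libraries and at or below 34.3 CPM in all others.

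The Mitf gene spans chr6:97807052-98021349 on the plus strand of GRCm38 and has several promoters, from which different first exons are spliced to a shared body. In melanocytes one of them is known to respond to cAMP through CREB and its CRTC coactivators. RefSeq (GRCm38.p6) gave 3 windows for Mitf, each from 250 bases before to 50 bases after an annotated start. They are shown because the comparison of LKB1 and CRTC2 bears on CREB, whose canonical site is the cAMP response element TGACGTCA, set in capitals.
Mitf, chr6:97806808-97807107: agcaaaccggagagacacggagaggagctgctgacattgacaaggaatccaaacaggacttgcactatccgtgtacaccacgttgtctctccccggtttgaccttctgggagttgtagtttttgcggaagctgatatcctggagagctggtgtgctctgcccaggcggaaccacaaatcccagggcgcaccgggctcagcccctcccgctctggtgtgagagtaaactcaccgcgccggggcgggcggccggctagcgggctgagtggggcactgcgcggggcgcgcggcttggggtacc
Mitf, chr6:97929567-97929866: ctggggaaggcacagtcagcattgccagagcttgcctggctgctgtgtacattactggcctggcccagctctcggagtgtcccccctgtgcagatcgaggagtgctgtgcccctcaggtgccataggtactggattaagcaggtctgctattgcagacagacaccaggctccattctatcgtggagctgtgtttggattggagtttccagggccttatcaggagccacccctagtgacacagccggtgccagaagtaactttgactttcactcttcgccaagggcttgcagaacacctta
Mitf, chr6:97991533-97991832: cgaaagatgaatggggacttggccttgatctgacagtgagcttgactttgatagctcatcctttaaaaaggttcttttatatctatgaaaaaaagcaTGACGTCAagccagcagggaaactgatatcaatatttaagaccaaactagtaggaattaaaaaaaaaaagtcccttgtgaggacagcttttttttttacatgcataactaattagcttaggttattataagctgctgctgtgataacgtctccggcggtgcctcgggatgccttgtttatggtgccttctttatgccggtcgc
The element was found in the third window, starting 153 bases before the start, and in neither of the other two. Searched on both strands, it occurred in 1.79% of all 32851 promoter windows (2.03% of genes) and, among the 33 members with a window, in Mitf and Atg5 (a conjugation protein). The counts are sums over all first exons, so they do not tell which start was used in these cells.

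E-boxes, the sites of the MiT/TFE family, were searched in the same windows. The sequence GTCACGTG or its reverse complement was in the windows of 8 of 33 members (24.2%), Atg14, Atg3, Atg7, Lamp1, Mcoln1, Ctsa, Ctsd and Gla, and in 2.25% of all windows (2.55% of the 27025 genes with a window). Its core CACGTG was in 10 members (30.3%), with Atg5 and Ctsl added, and in 7.15% of all windows (8.09% of genes). In untreated Lkb1-/- against wild-type MEFs, 3 of the 8 members with GTCACGTG were called higher (Gla, Lamp1 and Atg14), 1 lower (Ctsd) and 4 were not called, where 30.1% of all genes were higher and 25.8% lower. The windows of Gla and Ctsd, both on the minus strand, are shown because these genes hold the same site and differed from wild-type in opposite directions.
Gla, chrX:134600956-134601255: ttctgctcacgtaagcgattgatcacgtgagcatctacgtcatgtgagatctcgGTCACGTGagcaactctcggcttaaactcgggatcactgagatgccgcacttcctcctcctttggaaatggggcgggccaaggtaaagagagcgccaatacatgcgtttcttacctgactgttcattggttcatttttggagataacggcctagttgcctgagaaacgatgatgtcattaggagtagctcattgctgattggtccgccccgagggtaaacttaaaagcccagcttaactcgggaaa
Ctsd, chr7:142387778-142388077: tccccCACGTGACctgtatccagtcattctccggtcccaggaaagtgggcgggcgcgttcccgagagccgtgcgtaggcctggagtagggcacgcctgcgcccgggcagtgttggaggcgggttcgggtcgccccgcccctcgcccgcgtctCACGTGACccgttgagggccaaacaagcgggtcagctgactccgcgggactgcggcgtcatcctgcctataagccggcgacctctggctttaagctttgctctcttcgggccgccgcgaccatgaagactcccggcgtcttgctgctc
Capitals mark GTCACGTG or its reverse complement, which was found 1 time in the Gla window and 2 times in that of Ctsd. A match describes the letters and not binding. RefSeq windows were not found for Becn1, Ctsb, Npc1, Map1lc3a, Rb1cc1, Atg12 and Atg16l1.

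Among the 6 genes of initiation and nucleation, 2 were higher, 1 was lower and 3 were not called. Ulk1 encodes the kinase that starts autophagy and is itself a substrate of AMPK. It was at 38.4, 41.0 and 44.0 CPM in untreated wild-type and at 75.3, 91.3 and 97.9 CPM in untreated Lkb1-/- libraries. The groups were far apart, with a log2 fold change of 1.10 (SE 0.14, edgeR adjusted p = 4.9e-07). Atg14, which targets the lipid kinase complex to autophagy, was 1.24-fold higher (edgeR adjusted p = 0.0026). Becn1, the scaffold of that complex, was 1.23-fold lower, at 66.4, 66.7 and 60.5 CPM against 53.7, 51.3 and 52.4 CPM (edgeR adjusted p = 2.8e-05). Exons of Becn1 overlap those of Cntd1 on the other strand. The log2 fold changes of the other initiation genes, Ulk2, Rb1cc1 and Atg13, lay between -0.27 and 0.24 and were not called.

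Of the 12 genes of conjugation, lipid transfer and membrane supply, 6 were higher, 1 was lower and 5 were not called. The 6 were Wipi1 (a reader of the lipid made by the Beclin 1 complex), Atg2a (a lipid transfer protein), the proteases Atg4a and Atg4b, and Atg12 and Atg16l1 of the conjugation complex, and they were between 1.17-fold and 1.54-fold higher. Of these Atg16l1 was only just past the threshold (edgeR adjusted p = 0.049). Wipi1 was at 31.5, 30.9 and 31.7 CPM in wild-type and at 40.8, 48.8 and 55.7 CPM in Lkb1-/- libraries (log2 fold change 0.63, SE 0.19, edgeR adjusted p = 0.0089). Atg5, the partner of ATG12, was lower at 32.7, 34.0 and 32.8 CPM against 41.1, 41.6 and 40.2 CPM (log2 fold change -0.30, SE 0.065, edgeR adjusted p = 0.00041). The subunits of a single complex thus differed in direction, with Atg12 and Atg16l1 higher and Atg5 lower. Not called were Atg3, Atg7, Atg9a, Atg10 and Wipi2, of which Atg10 had the largest log2 fold change at -0.40 (edgeR adjusted p = 0.078).

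Within the ATG8 family, 1 gene was higher, 2 were lower and 2 were not called. Map1lc3a (LC3A) was at 11.2, 16.1 and 16.9 CPM in wild-type and at 22.4, 29.8 and 31.2 CPM in Lkb1-/- libraries, with a log2 fold change of 0.92 (SE 0.21, edgeR adjusted p = 0.00089). Gabarapl1 was at 98, 90 and 92.6 CPM against 57.4, 60.8 and 61.4 CPM, with a log2 fold change of -0.64 (SE 0.090, edgeR adjusted p = 2.8e-06). Gabarapl2 was 1.19-fold lower (edgeR adjusted p = 0.0076). Map1lc3b, the LC3 gene most used as an autophagy marker, had a log2 fold change of 0.26 (SE 0.15, edgeR adjusted p = 0.15) and Gabarap of 0.01 (SE 0.19, edgeR adjusted p = 0.96). Both had lower values in their libraries numbered 1.

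Of the cargo receptors, Sqstm1 was lower and Nbr1, which also binds ubiquitin and LC3, was not called. Sqstm1 was at 479, 512 and 547 CPM in untreated wild-type and at 248, 293 and 286 CPM in untreated Lkb1-/- libraries. The highest Lkb1-/- library stayed well below the lowest wild-type library, and the log2 fold change was -0.90 (SE 0.11, edgeR adjusted p = 8.5e-07). Nbr1 had a log2 fold change of 0.05 (SE 0.16, edgeR adjusted p = 0.83).

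Among the 5 genes of the lysosomal membrane and lipid transport, Lamp1 and Npc1 were higher, Npc2 was lower, and Lamp2 and Mcoln1 were not called. Lamp1 rose from 776, 828 and 819 CPM in wild-type to 985, 1053 and 1048 CPM in Lkb1-/- libraries (log2 fold change 0.35, SE 0.086, edgeR adjusted p = 0.0015). Npc1 and Npc2, which export cholesterol from the lysosome as partners, differed in opposite directions. Npc1 was 1.20-fold higher (edgeR adjusted p = 0.019) and Npc2 1.22-fold lower, only just past the threshold (edgeR adjusted p = 0.049). Mcoln1, a calcium channel of the lysosome, had a log2 fold change of 0.13 (SE 0.094, edgeR adjusted p = 0.26).

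The hydrolases were split, with 2 of the 6 tested higher and 3 lower. Ctsb (cathepsin B, a cysteine protease) was at 352, 339 and 398 CPM in wild-type and at 768, 824 and 887 CPM in Lkb1-/- libraries, a log2 fold change of 1.19 (SE 0.12, edgeR adjusted p = 4.8e-08). Gla (α-galactosidase A, the enzyme missing in Fabry disease) was at 24.7, 26.9 and 31.4 CPM against 50, 56.3 and 62.4 CPM, giving a log2 fold change of 1.02 (SE 0.14, edgeR adjusted p = 2.4e-06). For both, every Lkb1-/- library was above every wild-type library.

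Hexa (the α subunit of β-hexosaminidase, missing in Tay-Sachs disease) was at 92.5, 109 and 117 CPM in wild-type and at 50.9, 58.4 and 58.4 CPM in Lkb1-/- libraries, a log2 fold change of -0.93 (SE 0.16, edgeR adjusted p = 3.9e-05). Ctsd (cathepsin D, an aspartic protease) was at 124, 144 and 159 CPM against 72.8, 76.9 and 85.4 CPM, giving a log2 fold change of -0.86 (SE 0.14, edgeR adjusted p = 1.8e-05). Ctsl (cathepsin L) was at 330.2, 307 and 323 CPM against 235, 225 and 239 CPM, giving a log2 fold change of -0.46 (SE 0.091, edgeR adjusted p = 0.00019). The groups did not overlap for any of the 3 genes. Some exon bases of Ctsd and Ctsl, and of Atg9a, are shared with another annotated gene on the same strand (808, 395 and 1832 bases), so that pairs there could be left uncounted as ambiguous.

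**Figure D4:**
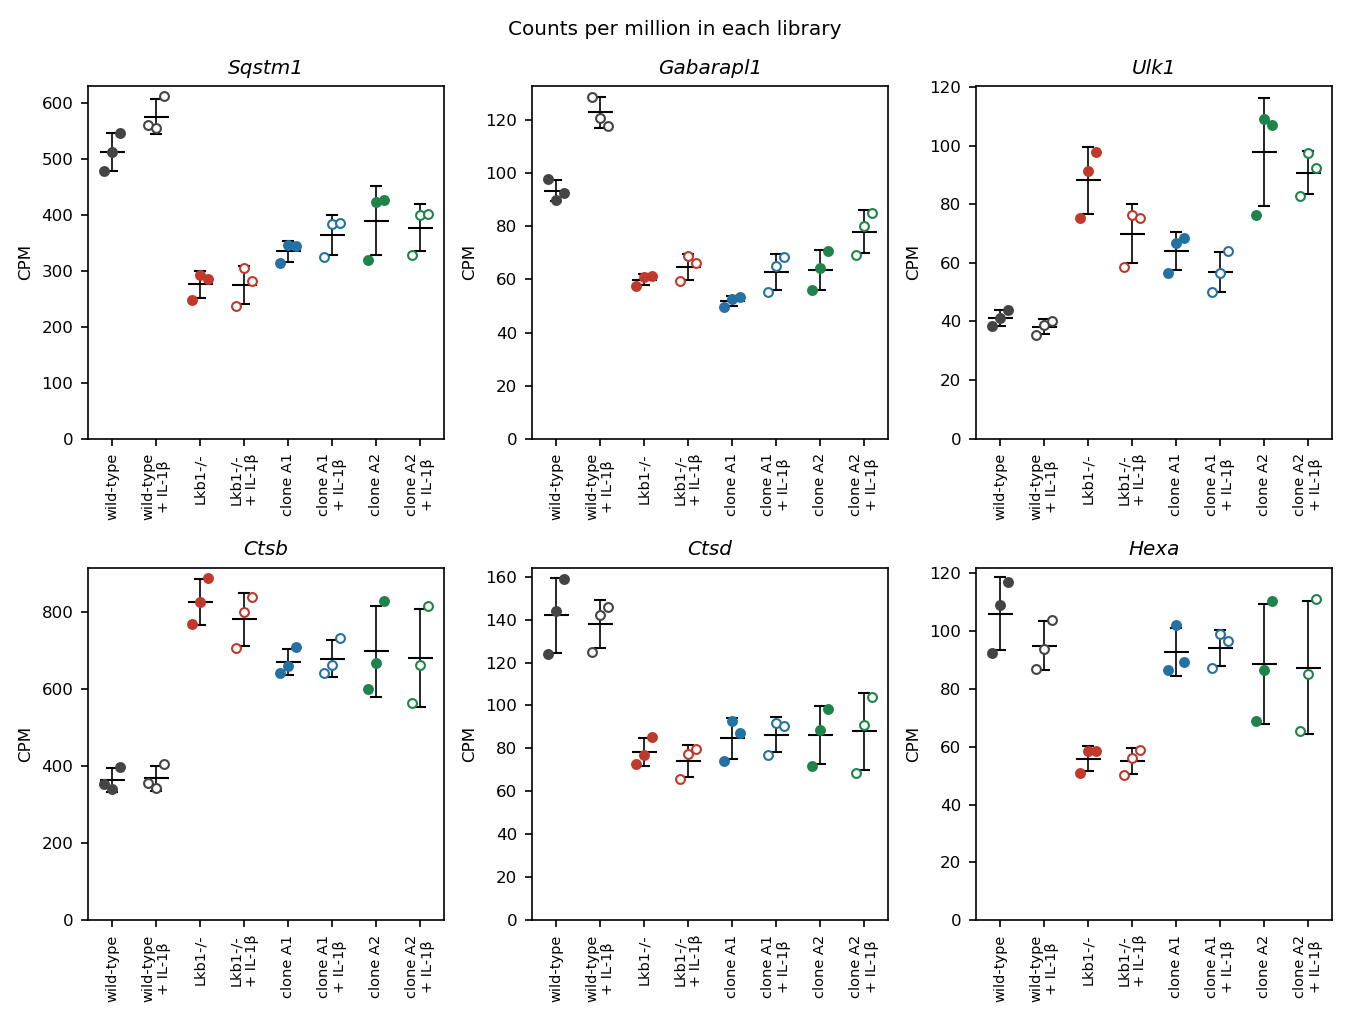
CPM of 6 members in each library (points) of the 8 groups, filled when untreated and open after IL-1β, with the mean and SD of 3 libraries. Sqstm1, Gabarapl1, Ctsd and Hexa are lower, and Ulk1 and Ctsb higher, in Lkb1-/- than in wild-type MEFs. In both clones Hexa is higher than in Lkb1-/- MEFs, untreated and after IL-1β, and Sqstm1 is higher after IL-1β.

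Other genes of the pathway were taken from 4 lists. In untreated Lkb1-/- against wild-type MEFs, 7 of 23 further autophagy genes were higher and 10 lower, 3 of 16 subunits of the V-ATPase (the proton pump that acidifies the lysosome) were higher and 7 lower, 12 of the 35 tested of 36 further lysosomal proteins were higher and 12 lower, and 9 of 22 genes of mTORC1 and lysosomal nutrient sensing were higher and 9 lower. The medians of their log2 fold changes were 0.04, -0.15, 0.05 and -0.04, against 0.04 over all genes, of which 30.1% were called higher and 25.8% lower. No list went one way.

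The genes named here had the 2 largest called changes in either direction within each list. Uvrag, a partner of Beclin 1, was 2.23-fold lower (edgeR adjusted p = 7.7e-11) and Wdr45, a WIPI protein, 2.05-fold lower (edgeR adjusted p = 3.2e-07), while Vamp8, a SNARE of autophagosome fusion, was 1.85-fold higher (edgeR adjusted p = 4.1e-07) and Calcoco1, a relative of the autophagy receptors, 1.53-fold higher (edgeR adjusted p = 0.025). Scarb2 (LIMP-2, the carrier of glucocerebrosidase) was at 84.0, 97.8 and 107 CPM in wild-type and at 25.2, 28.4 and 30.8 CPM in Lkb1-/- libraries (edgeR adjusted p = 2.7e-09), and Neu1 (a sialidase) was 2.84-fold lower (edgeR adjusted p = 2.2e-08). Atp6v1h and Atp6v0a1, subunits of the pump, were 1.76-fold and 1.70-fold lower, and the subunits Atp6v0a2 and Atp6v1f were 1.30-fold and 1.24-fold higher (edgeR adjusted p = 0.0004 and 0.0014). Ctsc (cathepsin C) had no count in any untreated wild-type library and 16.2 CPM ± 0.630 in untreated Lkb1-/- libraries, so it was at least 227-fold higher, taking 3 counts per library as the limit of detection. Ctsh (cathepsin H) was also called higher (edgeR adjusted p = 0.0071), but at levels of 0.0447, 0 and 0 CPM in wild-type and 0.136, 0.116 and 0.143 CPM in Lkb1-/- libraries, so few counts lie behind it.

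Rragd (RagD, a Rag GTPase that brings mTORC1 to the lysosome) was at 0.558, 0.437 and 0.391 CPM in wild-type and at 1.90, 2.16 and 1.79 CPM in Lkb1-/- libraries, a log2 fold change of 2.06 (SE 0.30, edgeR adjusted p = 5.6e-06). In the untreated clones it was higher still, at 6.09 CPM ± 0.666 in clone A1 and 11.9 CPM ± 4.08 in clone A2. Rragc, which encodes a near relative with the same role, was 1.60-fold lower in Lkb1-/- than in wild-type MEFs (edgeR adjusted p = 1.0e-06), and Flcn (folliculin, which acts on both Rag proteins) was 1.44-fold lower (edgeR adjusted p = 4.9e-06). Tsc2, an inhibitor of mTORC1, was 1.75-fold higher (edgeR adjusted p = 9.0e-10).

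The same genotypes were compared after 6 hours of IL-1β, with libraries that were not used above. Of the 39 members, 15 were called higher and 7 lower (56.4%), against 57.4% of all genes (30.2% higher and 27.1% lower), and the median log2 fold change was 0.18 against 0.03 over all genes. All 15 had also been called higher and all 7 lower without stimulation. The lines were the same in both, and how many of all genes kept their call was not counted. Called only in untreated cells were Npc1, which was higher there, and Ctsl and Gabarapl2, which were lower, but the difference between the treatments was not called for any of them. Without the libraries numbered 1, 18 members were higher and 8 lower, with 59.9% of all genes called.

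Mitf was at 15.8, 17.7 and 18.7 CPM in stimulated wild-type and at 99.3, 129.7 and 122 CPM in stimulated Lkb1-/- libraries, a log2 fold change of 2.75 (SE 0.15, edgeR adjusted p = 1.4e-12). Sqstm1 was at 561, 556 and 612 CPM against 238, 306 and 282 CPM, giving a log2 fold change of -1.06 (SE 0.11, edgeR adjusted p = 7.1e-08). Gabarapl1 was at 129, 121 and 118 CPM against 59.3, 68.7 and 66.3 CPM, giving a log2 fold change of -0.92 (SE 0.090, edgeR adjusted p = 1.6e-08). In each case the groups were well separated. The log2 fold changes of the other named members were 1.08 for Ctsb, 0.88 for Ulk1, 0.85 for Map1lc3a, -0.89 for Ctsd and -0.79 for Hexa, each with an edgeR adjusted p of 0.0017 or lower.

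The next comparisons asked what targeting Crtc2 in Lkb1-/- MEFs did to these genes, in clones A1 and A2. Mitf was lower in both clones than in Lkb1-/- MEFs, and by far the most of all members, and Tfe3 was also lower in both. Hexa, Ctsa and Becn1 were higher in both. Both clones were set against the same Lkb1-/- libraries, and these also entered the comparison with wild-type MEFs, so the values are not independent of each other. In untreated clone A1, 4 members were called higher and 12 lower (41.0%), against 35.3% of all genes (18.9% higher and 16.4% lower), with a median log2 fold change of -0.01 against 0.02 over all genes. In untreated clone A2, 9 were higher and 7 lower (41.0%), against 32.3% of all genes (17.1% higher and 15.1% lower), with a median of 0.04 against 0.02. Without the libraries numbered 1, there were 5 higher and 17 lower in clone A1 (40% of all genes called) and 15 higher and 9 lower in clone A2 (39% of all genes called).

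**Figure D5:**
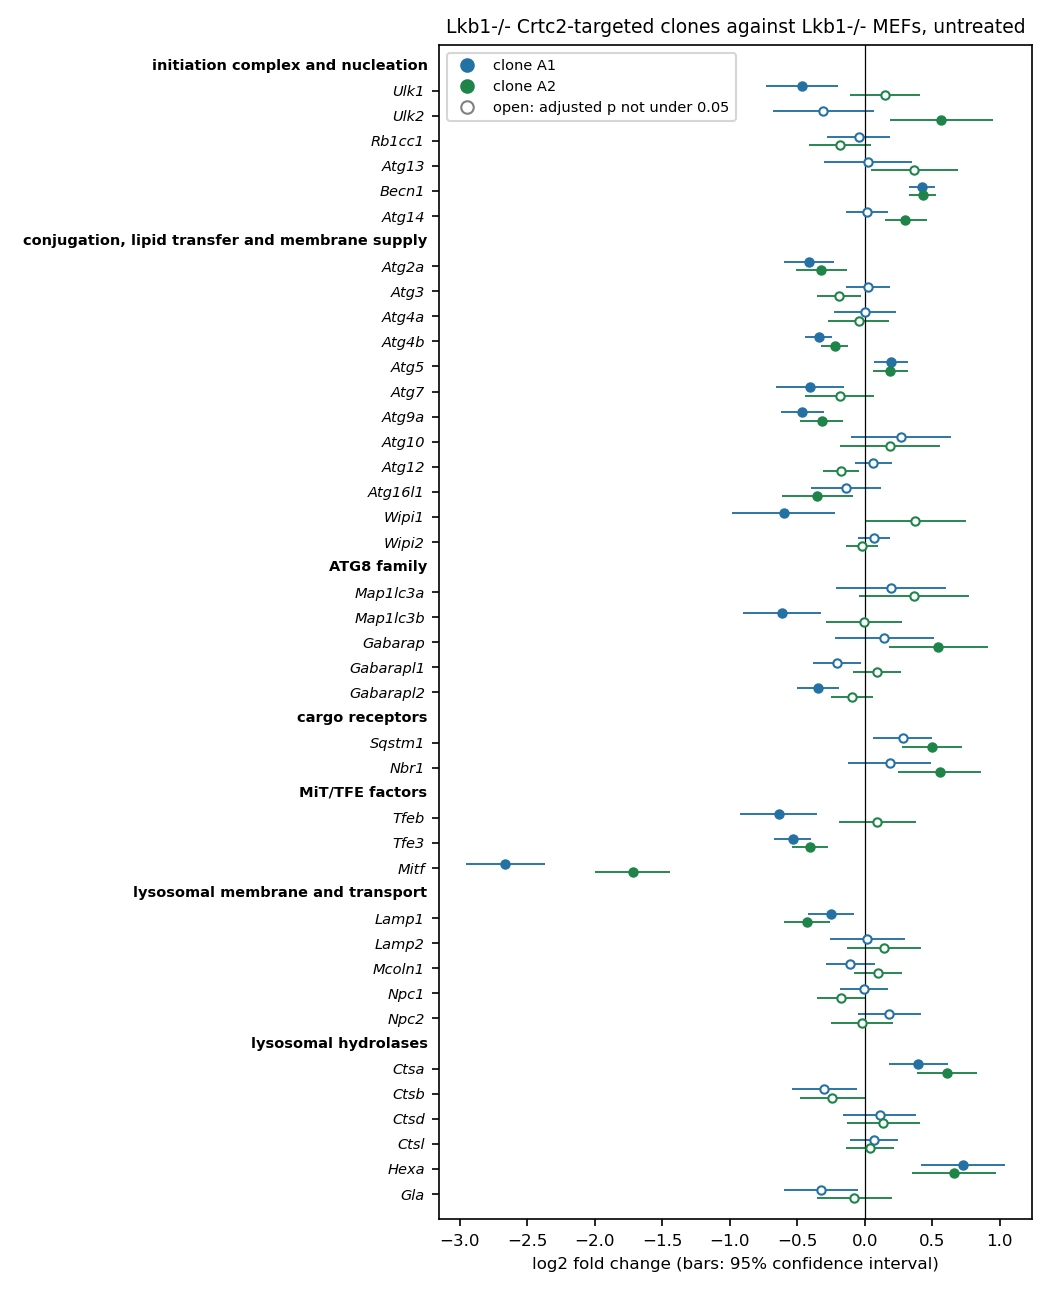
Log2 fold change of the 39 members tested in untreated clone A1 (blue) and clone A2 (green) against untreated Lkb1-/- MEFs (x axis), grouped by role, with bars of the 95% confidence interval and filled points where the adjusted p is under 0.05. Mitf lies at -2.66 and -1.72, and the other members lie between -0.64 and 0.73.

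Mitf was at 20.5, 17.5 and 13.9 CPM in untreated clone A1 and at 34.3, 34.1 and 31.3 CPM in untreated clone A2. All 6 values lay above the highest untreated wild-type library at 10.7 CPM and far below the lowest untreated Lkb1-/- library at 95.2 CPM. The log2 fold change against Lkb1-/- MEFs was -2.66 in clone A1 (SE 0.15, edgeR adjusted p = 4.4e-11) and -1.72 in clone A2 (SE 0.14, edgeR adjusted p = 1.7e-08). Tfe3 was at 84.5, 82.6 and 86.7 CPM in clone A1 and at 86.5, 96.8 and 94.5 CPM in clone A2, with log2 fold changes of -0.53 (SE 0.068, edgeR adjusted p = 3.3e-06) and -0.40 (SE 0.068, edgeR adjusted p = 0.00011). Every clone library was below every Lkb1-/- library for this gene.

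The clones differed in Tfeb. It was at 7.22, 8.43 and 8.98 CPM in clone A1, a log2 fold change of -0.64 against Lkb1-/- MEFs (SE 0.15, edgeR adjusted p = 0.0018). In clone A2 it was at 10.4, 15.3 and 15.2 CPM, giving a log2 fold change of 0.10 (SE 0.14, edgeR adjusted p = 0.67). The direct comparison of the clones gave a log2 fold change of 0.73 for A2 over A1 (SE 0.15, edgeR adjusted p = 0.00058).

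Of the genes that were lower in Lkb1-/- than in wild-type MEFs, Hexa was at 86.7, 102 and 89.4 CPM in untreated clone A1 and at 68.9, 86.6 and 110.3 CPM in untreated clone A2. All 6 values were above the highest Lkb1-/- library at 58.4 CPM, with log2 fold changes of 0.73 (SE 0.16, edgeR adjusted p = 0.0011) and 0.66 (SE 0.16, edgeR adjusted p = 0.0027). Becn1 was at 73.7, 69.4 and 68.0 CPM in clone A1 and at 69.2, 70.5 and 72.2 CPM in clone A2, against at most 53.7 CPM in Lkb1-/- libraries, with log2 fold changes of 0.42 (SE 0.050, edgeR adjusted p = 1.3e-06) and 0.43 (SE 0.050, edgeR adjusted p = 1.5e-06). Sqstm1 was at 314, 346 and 345 CPM in clone A1, a log2 fold change of 0.28 that was not called (SE 0.11, edgeR adjusted p = 0.061) but was called without the libraries numbered 1 (0.26, edgeR adjusted p = 0.0017), with upper quartile scaling, with either other filter, with only the groups compared and by DESeq2 (adjusted p between 0.0062 and 0.050). In clone A2 Sqstm1 was at 319, 424 and 427 CPM, giving a log2 fold change of 0.50 (SE 0.11, edgeR adjusted p = 0.0018).

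Ctsa (cathepsin A, which protects β-galactosidase and neuraminidase in the lysosome) did not differ detectably between untreated Lkb1-/- and wild-type MEFs, with a log2 fold change of 0.11 (SE 0.11, edgeR adjusted p = 0.43). It was at 196, 228 and 229 CPM in Lkb1-/- libraries, at 266, 314 and 280.4 CPM in clone A1 and at 272, 340.1 and 383 CPM in clone A2. The clones were above all Lkb1-/- libraries, with log2 fold changes of 0.40 (SE 0.11, edgeR adjusted p = 0.0086) and 0.61 (SE 0.11, edgeR adjusted p = 0.00030). In clone A1 the edgeR adjusted p of Ctsa was 0.054 without Lkb1-/- replicate 1 and 0.053 without clone A1 replicate 2. That of Atg5, which was 1.15-fold higher in clone A1, was 0.066 and 0.065 without Lkb1-/- replicate 1 or 3 and 0.069 and 0.094 without clone A1 replicate 2 or 3, and it was 0.23 with no filter.

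The other members named for their size in clone A1 were lower. Map1lc3b was at 39.3, 45.9 and 49.6 CPM, below the Lkb1-/- libraries at 57.2, 71.0 and 77.7 CPM (log2 fold change -0.61, SE 0.15, edgeR adjusted p = 0.0026). Wipi1 was at 28.3, 32.3 and 35.2 CPM, giving a log2 fold change of -0.60 (SE 0.19, edgeR adjusted p = 0.019), which was -0.52 (edgeR adjusted p = 0.081) without clone A1 replicate 1 and -0.49 (edgeR adjusted p = 0.094) without Lkb1-/- replicate 3. Ulk1, at 56.5, 66.6 and 68.6 CPM, had a log2 fold change of -0.46 in clone A1 (SE 0.13, edgeR adjusted p = 0.0093). In clone A2 it was at 76.4, 109 and 107 CPM and was not called.

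In untreated clone A2 the other named members were Lamp1 and Atg16l1, which were lower, and Ulk2 and Nbr1, which were higher. Lamp1 was at 704, 742 and 849 CPM, below all Lkb1-/- libraries (log2 fold change -0.43, SE 0.086, edgeR adjusted p = 0.00061). Nbr1 had a log2 fold change of 0.56 (SE 0.16, edgeR adjusted p = 0.0085), which was 0.47 (edgeR adjusted p = 0.053) without Lkb1-/- replicate 1. Ulk2 was at 41.2, 67.2 and 64.7 CPM in clone A2 and at 33.3, 39.9 and 43.4 CPM in Lkb1-/- libraries, which overlap (log2 fold change 0.57, SE 0.19, edgeR adjusted p = 0.027). Its adjusted p was between 0.058 and 0.12 by edgeR without Lkb1-/- replicate 1 or 2 or without clone A2 replicate 2 or 3.

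Atg16l1 in clone A2 was the weakest of these calls, with a log2 fold change of -0.35 (SE 0.13, edgeR adjusted p = 0.047). It was lost when Lkb1-/- replicate 1 or 2 or clone A2 replicate 2 or 3 was left out (edgeR adjusted p between 0.084 and 0.28) and under 5 other settings, among them upper quartile normalization (edgeR adjusted p = 0.12).

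Of the 12 genes of conjugation, lipid transfer and membrane supply, 1 was higher, 5 were lower and 6 were not called in untreated clone A1, and 1 was higher, 4 were lower and 7 were not called in untreated clone A2. Of all genes, 18.9% were higher and 16.4% lower in clone A1 and 17.1% were higher and 15.1% lower in clone A2. The median log2 fold changes of the 12 were -0.07 and -0.18, against 0.02 over all genes in each. Atg9a, whose product supplies membrane to the growing autophagosome, was at 28.4, 28.2 and 30.5 CPM in untreated Lkb1-/- libraries. It was at 21, 20.8 and 21.5 CPM in clone A1 (log2 fold change -0.46, SE 0.082, edgeR adjusted p = 0.00014) and at 21.6, 23.6 and 24.8 CPM in clone A2 (log2 fold change -0.32, SE 0.081, edgeR adjusted p = 0.0047). No clone library reached the Lkb1-/- libraries. Atg9a had not differed detectably between Lkb1-/- and wild-type MEFs, with a log2 fold change of -0.015 (SE 0.081, edgeR adjusted p = 0.89). Atg4b and Atg2a, which were higher in Lkb1-/- than in wild-type MEFs, were 1.26-fold and 1.33-fold lower in clone A1 and 1.17-fold and 1.25-fold lower in clone A2 than in Lkb1-/- MEFs. Atg7, the E1-like enzyme of both conjugation systems, was lower in clone A1 (edgeR adjusted p = 0.020) and not called in clone A2 (edgeR adjusted p = 0.31). Atg5 was the member of this role called higher in both, with the limits given above for clone A1.

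Among the other roles in the untreated clones, Gabarapl2 was 1.27-fold lower in clone A1 and Gabarap 1.46-fold higher in clone A2, and Atg14 was 1.23-fold higher in clone A2. Lamp1 was the only called gene of the 5 of the lysosomal membrane in either clone, at 822, 917 and 855 CPM in clone A1. Hexa and Ctsa were the only called hydrolases. Atg10, Atg13, Atg3, Lamp2, Mcoln1 and Rb1cc1 were called in none of the 15 comparisons.

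Ctsb, Ctsd and Map1lc3a, which differed strongly between untreated Lkb1-/- and wild-type MEFs, were not called in either untreated clone. Ctsb was at 641, 660.2 and 708 CPM in clone A1 and at 599.7, 666 and 829 CPM in clone A2, against 768 to 887 CPM in Lkb1-/- libraries and 339 to 398 CPM in wild-type libraries. Ctsd was at 74.2, 92.7 and 87.3 CPM in clone A1 and at 71.7, 88.6 and 98.5 CPM in clone A2, and overlapped the Lkb1-/- libraries in both. Of the 35 further lysosomal proteins tested, 14 were higher and 2 lower in clone A1, and 14 were higher and 3 lower in clone A2. Of all genes, 18.9% were higher and 16.4% lower in clone A1, and 17.1% were higher and 15.1% lower in clone A2. The median log2 fold changes of these lysosomal proteins were 0.33 and 0.31 against 0.02 over all genes in each. The summed level of the 8 macrophage markers moved with this, from 4.45 to 6.04 CPM in untreated Lkb1-/- libraries to 6.98 to 8.56 CPM in clone A1 and 6.83 to 7.82 CPM in clone A2. Most of it was Cd68, itself a lysosomal protein, at a mean of 3.38, 5.01 and 5.37 CPM, while Adgre1, Tyrobp and Ptprc were at or near 0. Cd68 and Lyz2 were called higher than in Lkb1-/- MEFs in both clones, and Csf1r was not called. Csf1r was at a mean of 1.68, 2.15 and 1.77 CPM and Lyz2 at 0, 0.362 and 0.0646 CPM in untreated Lkb1-/- MEFs, clone A1 and clone A2. The part of these markers in the result was not tested.

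After IL-1β, 4 members were higher and 10 lower in clone A1 than in Lkb1-/- MEFs (35.9%), against 36.7% of all genes (19.4% higher and 17.3% lower), and 10 were higher and 6 lower in clone A2 (41.0%), against 32.8% of all genes (17.1% higher and 15.8% lower). Of the 16 members called in untreated clone A1, 13 were called in the same direction after IL-1β. For clone A2 this held for 13 of 16. The libraries were not shared between the treatments, but the clones were the same. How many of all genes kept their call was not counted. Without the libraries numbered 1, there were 8 higher and 16 lower in clone A1 (41.4% of all genes called) and 14 higher and 8 lower in clone A2 (38.5% of all genes called). The count for clone A1 thus rose from 14 to 24.

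Mitf was at 27.7, 22.5 and 18.4 CPM in stimulated clone A1 and at 30.9, 29.8 and 28.2 CPM in stimulated clone A2. Against stimulated Lkb1-/- MEFs its log2 fold change was -2.35 (SE 0.15, edgeR adjusted p = 1.9e-10) and -1.98 (SE 0.14, edgeR adjusted p = 3.0e-09). Every clone library was again far below the lowest stimulated Lkb1-/- library at 99.3 CPM. Hexa and Ctsa were higher in both stimulated clones, with log2 fold changes of 0.78 and 0.54 in clone A1 and 0.67 and 0.68 in clone A2 (edgeR adjusted p of 0.0027 or lower). Sqstm1 was now called in clone A1 as well, with a log2 fold change of 0.40 (SE 0.11, edgeR adjusted p = 0.0081), which was 0.31 (edgeR adjusted p = 0.053) without Lkb1-/- replicate 1 of the stimulated group. Gabarap, 1.46-fold higher in clone A2 (edgeR adjusted p = 0.028), had an edgeR adjusted p between 0.051 and 0.13 without stimulated Lkb1-/- replicate 1 or 2 or clone A2 replicate 3, and of 0.070 with only the groups compared.

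The clones were also compared with each other. In untreated cells, 9 members were higher and 1 was lower in clone A2 than in clone A1 (25.6%), against 32.5% of all genes (15.8% higher and 16.7% lower), and after IL-1β 8 were higher and none lower (20.5%), against 30.7% of all genes (15.1% higher and 15.6% lower). These were Wipi1, Mitf, Ulk2, Tfeb, Ulk1, Map1lc3b, Gabarapl1, Atg14 and Gabarapl2 in untreated cells, and all but Mitf, Atg14 and Gabarapl2, with Atg4b and Atg9a added, after IL-1β. Mitf was 1.92-fold higher in untreated clone A2 (edgeR adjusted p = 3.1e-05) and 1.30-fold higher after IL-1β, where its edgeR adjusted p was 0.050 and just missed the threshold. Without stimulated clone A1 replicate 1 it was called, with a log2 fold change of 0.54 (edgeR adjusted p = 0.0094), as it was with unstranded counts, DESeq2's size factors, no filter, the newer quasi-likelihood form, DESeq2 or without the libraries numbered 1 (adjusted p between 0.002 and 0.049). Wipi1 was at 43.8, 69.8 and 74.5 CPM in untreated clone A2 and at 28.3, 32.3 and 35.2 CPM in untreated clone A1 (log2 fold change 0.97, SE 0.19, edgeR adjusted p = 0.00055). Atg12 was 1.18-fold lower in untreated clone A2 (edgeR adjusted p = 0.013), with an edgeR adjusted p of 0.059 without clone A1 replicate 3.

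The count in untreated cells rested on 1 library. Without untreated clone A2 replicate 1, 17 members were called higher and 2 lower in clone A2, with 3243 of all 17522 genes called higher and 2865 lower. With all libraries numbered 1 left out, it was 18 higher and 3 lower untreated (40.4% of all genes called) and 14 higher and 1 lower after IL-1β (38.0% of all genes called). Of the 23 further autophagy genes, 4 were higher and 6 lower in untreated clone A2 than in clone A1, and 6 were higher and 5 lower after IL-1β.

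The last comparisons asked which members responded to IL-1β within a genotype. Few did in the model of all 24 libraries, which held a term per group and none for the library number. In wild-type MEFs 3 were called higher and none lower (7.69%), against 2.26% of all genes (1.53% higher and 0.731% lower). In Lkb1-/- MEFs 2 were higher and none lower (5.13%), against 4.74% of all genes (2.65% higher and 2.09% lower). The count was 3 higher and 1 lower in clone A2 (10.3%), against 5.68% of all genes (2.81% higher and 2.86% lower). In clone A1 it was 0 by edgeR in this model, against 1.99% of all genes (1.2% higher and 0.788% lower). At an unadjusted p under 0.05 by edgeR there were 7 members, against 1881 of all 17522 genes. DESeq2 called 2 members and 573 of all genes. With no filter, upper quartile scaling or a minimum of 10 counts in every library, edgeR also called 2 members. Calls over all genes were then 908, 500 and 387. Without the libraries numbered 1, the counts were 5 in wild-type MEFs (5.22% of all genes called), 3 in Lkb1-/- MEFs (8.71%), 3 in clone A1 (5.13%) and 8 in clone A2 (14.6%).

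In wild-type MEFs the strongest response was that of Mitf, from 10, 8.52 and 10.7 CPM to 15.8, 17.7 and 18.7 CPM, with a log2 fold change of 0.83 (SE 0.15, edgeR adjusted p = 0.0021). The groups were well separated. Gla rose from 24.7, 26.9 and 31.4 CPM to 34.7, 40.2 and 48.3 CPM (log2 fold change 0.57, SE 0.14, edgeR adjusted p = 0.032), and Gabarapl1 from 98, 90 and 92.6 CPM to 129, 121 and 118 CPM (log2 fold change 0.39, SE 0.089, edgeR adjusted p = 0.018). Both calls depended on single libraries and on the setting, since Gabarapl1 was not called with unstranded counts (edgeR adjusted p = 0.069) nor Gla with only the groups compared (edgeR adjusted p = 0.073). That of Gla was lost without untreated replicate 1 or 2 or stimulated replicate 2 or 3 (edgeR adjusted p between 0.081 and 0.17), and that of Gabarapl1 without stimulated replicate 1 or untreated replicate 2 (0.098 and 0.11 by edgeR). Without untreated replicate 2, Mitf was the only member called. Tfe3, with a log2 fold change of 0.26 (SE 0.068, edgeR adjusted p = 0.051), just missed the threshold, and was called with upper quartile scaling, a minimum of 10 counts in every library, only the groups compared, DESeq2 or without the libraries numbered 1 (adjusted p between 0.0051 and 0.023).

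The 2 calls in Lkb1-/- MEFs were Ctsl and Wipi2. Ctsl rose from 235, 225 and 239 CPM to 291, 277 and 313 CPM (log2 fold change 0.34, SE 0.091, edgeR adjusted p = 0.035) and Wipi2, a reader of the Beclin 1 complex lipid, from 138, 144 and 147 CPM to 156, 169.6 and 171 CPM (log2 fold change 0.22, SE 0.061, edgeR adjusted p = 0.045). The stimulated libraries lay above all untreated ones for both genes. Leaving out any single one of the 6 libraries brought the count to 0 or 1, and the call left was that of Wipi2 without stimulated replicate 1 and that of Ctsl without stimulated replicate 2. With unstranded counts neither was called (edgeR adjusted p = 0.051 and 0.089), and Wipi2 was also lost with no filter and with only the groups compared (edgeR adjusted p = 0.12 and 0.050). Without the libraries numbered 1 Ctsl was not called (edgeR adjusted p = 0.12). Mitf, at 95.2, 118 and 115 CPM before and 99.3, 129.7 and 122 CPM after, had a log2 fold change of 0.10 (SE 0.14, edgeR adjusted p = 0.83).

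In clone A2, Ctsl, Atg12 and Wipi2 rose by 0.35, 0.25 and 0.23 on the log2 scale (edgeR adjusted p = 0.024, 0.040 and 0.026), and Tfeb fell by 0.55 (edgeR adjusted p = 0.025). Tfeb went from 10.4, 15.3 and 15.2 CPM to 8.94, 8.33 and 10.6 CPM, and the groups overlapped. Its call was lost without untreated replicate 2 or 3 or stimulated replicate 1 or 2 (edgeR adjusted p between 0.072 and 0.13), those of Ctsl and Atg12 without untreated replicate 2 or stimulated replicate 3 (edgeR adjusted p between 0.078 and 0.12), and that of Atg12 also without stimulated replicate 2 (edgeR adjusted p = 0.087). With only the groups compared none of the 4 was called (edgeR adjusted p between 0.18 and 0.31), and Wipi2 and Atg12 were also lost with unstranded counts and with no filter (edgeR adjusted p between 0.052 and 0.071). The count of 4 fell to 1 without untreated replicate 2 and to 2 without stimulated replicate 2 or 3. In the other genotypes the log2 fold change of Tfeb after IL-1β was -0.30 in wild-type MEFs (edgeR adjusted p = 0.47), -0.46 in Lkb1-/- MEFs (edgeR adjusted p = 0.086) and -0.46 in clone A1 (edgeR adjusted p = 0.15), none of them called. In Lkb1-/- MEFs the call depended on the setting, since Tfeb was called with upper quartile scaling (edgeR adjusted p = 0.042), with only the groups compared (edgeR adjusted p = 0.048), by DESeq2 (adjusted p = 0.046) and, at -0.54, without the libraries numbered 1 (edgeR adjusted p = 0.016).

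Whether the responses differed between genotypes was tested directly. No member was called for Lkb1-/- against wild-type MEFs (0.245% of all genes called). The same held for clone A1 against Lkb1-/- MEFs (0.0285%) and for clone A2 against Lkb1-/- MEFs (0.0%). At an unadjusted p under 0.05 by edgeR there were 4, 0 and 1 members, against 985, 433 and 388 of all 17522 genes. For Mitf the response in Lkb1-/- minus that in wild-type MEFs was -0.74 on the log2 scale (SE 0.20, edgeR adjusted p = 0.22), which was not called. It was called without the libraries numbered 1, with a difference of -0.81 (edgeR adjusted p = 0.039), and with no filter on low counts, with a difference of -0.70 (edgeR adjusted p = 5.8e-05). In those fits 141 and 347 of all genes were called, against 43 with all libraries and the filter.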

How the data were processed

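RNA-seq libraries of 8 groups of MEFs were analysed, 3 per group and each gene by sample. The authors deposited unnormalized counts per gene: reads were trimmed with Trim Galore 0.6.0 and aligned with STAR 2.7.8a, per the submitters' processing notes, to GRCm38 with GENCODE vM24 genes, and STAR counted read pairs per gene, unstranded and per strand. On the library kit the labels (SMARTER mRNA-Seq) and the study's methods (KAPA RNA HyperPrep with rRNA depletion) differ. Counts of the second strand, which took 95.5% to 96% of stranded counts, were used. Lines that name no gene (26.7% to 34.4% of pairs) were left out. Symbols came from GENCODE M21 (55230 of 55471 identifiers, and all 40 members).

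Genes were kept by filterByExpr (minimum count 10, minimum total 15), leaving 17522, and were scaled by TMM (factors 0.922 to 1.09). One model over all 24 libraries was fitted with edgeR 4.0.16 (R 4.3.3) by its quasi-likelihood test in the older form, with a term per group, Benjamini-Hochberg adjustment over all genes tested and a threshold of 0.05. A permutation of 3 against 3 libraries could not go below p = 0.1, so no single-gene permutation test is given. Alternatives were unstranded counts, 2 other scalings, 2 other filters, the newer quasi-likelihood form, DESeq2 1.42.0, a replicate block, only the groups compared, and each library left out.

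The members and the other gene lists were chosen with earlier results of these data known. Each of the 40 members could be named. Those given with full statistics were up to 4 called genes in each direction with the largest log2 fold change, to which members of interest by role were added after their values were seen. Other lists were named by the 2 largest called changes in each direction. Per kilobase values were divided by the union of exons. Promoter windows were taken from RefSeq for GRCm38.p6 (250 bases before to 50 after a start). Totals were 38842901 to 48594394 counts per library, which leaves more counting error in members at low counts (Atg10 at 79 to 166 counts per library, Ctss mostly at 0) than in the rest.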

Additional observations from a re-analysis of the deposited data

How the results depend on the processing

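Directions and calls were read in 15 comparisons under the alternatives above. The 4 members with the largest called change in each direction between Lkb1-/- and wild-type MEFs, untreated or stimulated, kept direction and call under every alternative run. With 1 library left out, the number of members called ranged from 22 to 24 for untreated Lkb1-/- against wild-type MEFs and 18 to 22 after IL-1β, 11 to 15 and 10 to 15 for clone A1 against Lkb1-/-, 11 to 18 and 12 to 20 for clone A2, 9 to 19 and 8 to 11 for clone A2 against A1, and 1 to 3, 0 to 1, 0 to 0 and 1 to 5 for IL-1β in wild-type, Lkb1-/-, clone A1 and clone A2. It was 0 throughout for the differences between responses. In the same fits, calls over all genes ranged from 9064 to 9459 and 9249 to 9622 for Lkb1-/- against wild-type. They ranged from 5235 to 5552 and 5360 to 5904 for clone A1 against Lkb1-/-, and 4654 to 6027 and 4896 to 5803 for clone A2. For clone A2 against A1 they were 4741 to 6108 and 4285 to 5516. For IL-1β they were 209 to 432, 537 to 704, 201 to 243 and 684 to 1895. For the differences between responses they were 23 to 59, 0 to 3 and 0 to 1.

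Same-numbered libraries deviated together in part. The 84 correlations of their deviations ranged from 0.0355 to 0.589 (median 0.222), 69 of them over 0.1, against a median of -0.115 for different numbers. For 23 of 24 libraries, the mean correlation with libraries of other groups was highest for their own number. Since not all exceeded 0.1, the number was not taken as a pairing. The spread between numbers thus stayed in the error of the model with a term per group. With the replicate block, the calls rose to 25 (untreated) and 26 (IL-1β) for clone A1 against Lkb1-/-, 25 for clone A2 after IL-1β, 25 and 21 for clone A2 against A1, and 5, 8, 7 and 7 for IL-1β in wild-type, Lkb1-/-, clone A1 and clone A2. Calls over all genes rose as well, from 6181 to 8424 and 6437 to 8603 for clone A1 against Lkb1-/-, 5755 to 8163 for clone A2 after IL-1β, 5692 to 8104 and 5374 to 7787 for clone A2 against A1, and 396 to 1629, 831 to 2601, 348 to 1684 and 995 to 3133 for IL-1β. The block gave 2 members for the difference of the response between Lkb1-/- and wild-type, Mitf among them (edgeR adjusted p = 0.048). Calls over all genes rose there from 43 to 311. The block also called Tfeb lower after IL-1β in Lkb1-/- (edgeR adjusted p = 0.0015) and clone A1 (0.0036), and Tfe3 higher after IL-1β in wild-type (0.0032). It called Sqstm1 higher in untreated clone A1 against Lkb1-/- (edgeR adjusted p = 0.00041) and Mitf higher in stimulated clone A2 against A1 (0.024).

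With no filter there were 22 calls for clone A1 against Lkb1-/- after IL-1β, 2 for IL-1β in clone A1 and 2 for the difference of the response between Lkb1-/- and wild-type. With only the groups compared there were 10 for clone A2 against Lkb1-/- after IL-1β and 0 for IL-1β in clone A2. Unstranded counts gave 0 for IL-1β in Lkb1-/- and 2 in clone A2. Upper quartile scaling gave 4 for IL-1β in Lkb1-/- and 2 in clone A1, and a minimum of 10 counts in every library and DESeq2 also gave 2 in clone A1. The calls over all genes moved from 6437 to 6235, 348 to 908 and 43 to 347 with no filter, from 5755 to 4318 and 995 to 243 with only the groups compared, from 831 to 750 and 995 to 884 with unstranded counts, and from 831 to 1054 and 348 to 500 with upper quartile scaling, in the order given, and from 348 to 387 with the minimum of 10 and to 573 by DESeq2. Upper quartile scaling moved the median of all genes by 0.102 for Lkb1-/- against wild-type after IL-1β. The added alternative without the libraries numbered 1 gave 24 for clone A1 against Lkb1-/- after IL-1β and 21 and 15 for clone A2 against A1. It gave 5, 3 and 8 for IL-1β in wild-type, clone A1 and clone A2, and 1 for the difference of the response between Lkb1-/- and wild-type. Calls over all genes in that fit were 7252, 7078 and 6666, 915, 899 and 2555, and 141, in the order given. The cause of these shifts was not tested.

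Reversals of direction were seen only in log2 values near 0 that were not called. For Tfeb in clone A2 against Lkb1-/- after IL-1β they were 0.027 (unstranded) and 0.019 (without the libraries numbered 1), and -0.076 to 0.095 with 1 library left out. For Sqstm1 under IL-1β in Lkb1-/- MEFs they were 0.007 (DESeq2 and its size factors), 0.011 (upper quartile), 0.009 (no filter), 0.019 (minimum of 10), 0.001 (only the groups compared), 0.022 (without the libraries numbered 1) and -0.083 to 0.092. For Tfe3 they were -0.019 and -0.002 without the libraries numbered 1 in the response of clones A1 and A2 against Lkb1-/-, with -0.062 to 0.082 and -0.031 to 0.114 when 1 library was left out, and -0.026 to 0.119 under IL-1β in Lkb1-/-. For Tfeb in the response of clone A1 they were 0.024 (unstranded), 0.007 (no filter), 0.055 (without the libraries numbered 1) and -0.091 to 0.085, of clone A2 -0.243 to 0.0, and of Lkb1-/- against wild-type -0.253 to 0.002. For Sqstm1 they were -0.03 to 0.141 for clone A2 against A1 after IL-1β, -0.158 to 0.045 under IL-1β in clone A2 and -0.159 to 0.044 in the response of clone A2.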
